A study of Mus musculus with 6 samples.

Results

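The 39 protein-coding Hox genes of the mouse and 3 genes of limb type, Tbx4, Tbx5 and Pitx1, were followed in stromal cells sorted from injured quadriceps muscle. Members were the protein-coding genes of the GENCODE vM21 annotation whose symbols are Hoxa, Hoxb, Hoxc or Hoxd followed by a number, together with those 3 genes. This gave 42 of the 55536 genes in the count files, and 32 of the 42 passed the filter on low counts and were tested. The cells came from C57Bl/6 mice carrying a tdTomato reporter for p16, a product of Cdkn2a that halts the cell cycle and is widely used to mark senescent cells. All cells were negative for CD45, a leukocyte protein, and CD31, an endothelial protein, and positive for the integrin CD29. The p16+ group was tdTomato-positive and the p16- group tdTomato-negative, with 3 libraries each. Both groups came from a model in which quadriceps muscle was surgically removed at 10 weeks of age and the defect filled with a plastic particulate, a decellularized matrix or saline. The sources used here do not give the filler or the harvest time of each library, nor whether the replicates came from separate animals. P-values therefore measure the spread between these samples, which may be technical, and a filler or time that differed between the groups cannot be told apart from p16.

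Hox genes encode homeodomain transcription factors and sit in clusters on separate chromosomes. Genes of the same number in different clusters are paralogues, and their order along the chromosome follows the position along the body axis where they act, from low numbers at the head end to high numbers at the tail end and the tips of the limbs. In the limb, posterior Hoxa and Hoxd genes pattern the segments from shoulder or hip to digits, and adult fibroblasts keep a Hox profile of the site they came from. Tbx5 is the T-box factor of the forelimb bud. Its relative Tbx4 and the homeodomain factor Pitx1 act in the hindlimb bud, the source of the connective tissue of the quadriceps.

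Libraries held between 35253406 and 39103909 counts, so that 3 counts in a library were worth 0.0767 to 0.0851 CPM (counts scaled to library size with TMM normalization factors). Cdkn2a, the check of the sort, had 7.82 ± 0.961 CPM in p16+ and 2.13 ± 0.329 in p16- (SD, n = 3). The fibroblast marker Pdgfra stood at 866 and 1018 CPM and did not pass the test. It was called lower with library totals alone, no filter, a replicate block and without p16- replicate 1 (edgeR adjusted p = 0.00378 to 0.0411). Over 9 fibroblast genes the summed level was 86080 to 88382 CPM in p16+ and 53886 to 60638 in p16-, with 3 called higher (Col1a1, Col1a2 and Lum) and 4 lower (Dpp4, Pi16, Cd34 and Ly6a). Markers of other cells were also present, and none of the 8 marker lists had a gene at 0 in all libraries. Over 6 satellite cell (muscle stem cell) genes, the summed level was 111 to 121 CPM in p16+ and 63.2 to 75.8 in p16-, and 3 of the 6 were called higher. Over 10 leukocyte genes it was 256 to 295 against 184 to 205 CPM, with 4 called higher, and over 8 pericyte and smooth muscle genes 1943 to 2019 against 1300.3 to 1657 CPM, with 5 called higher. Over 5 Schwann cell genes it was lower in p16+, at 19.9 to 30.2 against 45.6 to 83.2 CPM, with 4 called lower. Endothelial genes summed to 81.1 to 103 against 178 to 209 CPM, a sum led by Tek, while 3 of the 8 were called higher and 1 lower. The lists other than those of muscle fibre and epithelium moved with the groups, and the part of all these lists in the results below was not tested. Among all 15903 tested genes 16.7% were called, in either direction. In bulk RNA, fewer cells of a type and less RNA per cell cannot be told apart.

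The cells had a Hox profile led by Hoxc10, with Hoxa10 and the middle Hoxc genes next. The genes of groups 12 and 13 were near or at 0, apart from Hoxd13, which was low but found in every library. Levels of different genes are compared here as FPKM (fragments scaled to library size and exonic length), and 15 of the 39 Hox genes had a mean of at least 1 FPKM. Of these 7 lay in the Hoxc cluster, 4 in Hoxa, 3 in Hoxb and 1 in Hoxd. A fragment was found in every library for 29 Hox genes. In some libraries only it was found for 5, and for the other 5 (Hoxa13, Hoxb1, Hoxb13, Hoxc12 and Hoxd12) it was found in none. A count of 0 allows up to the 3 counts given above, and this limit covers counting error only.

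**Figure D1:**
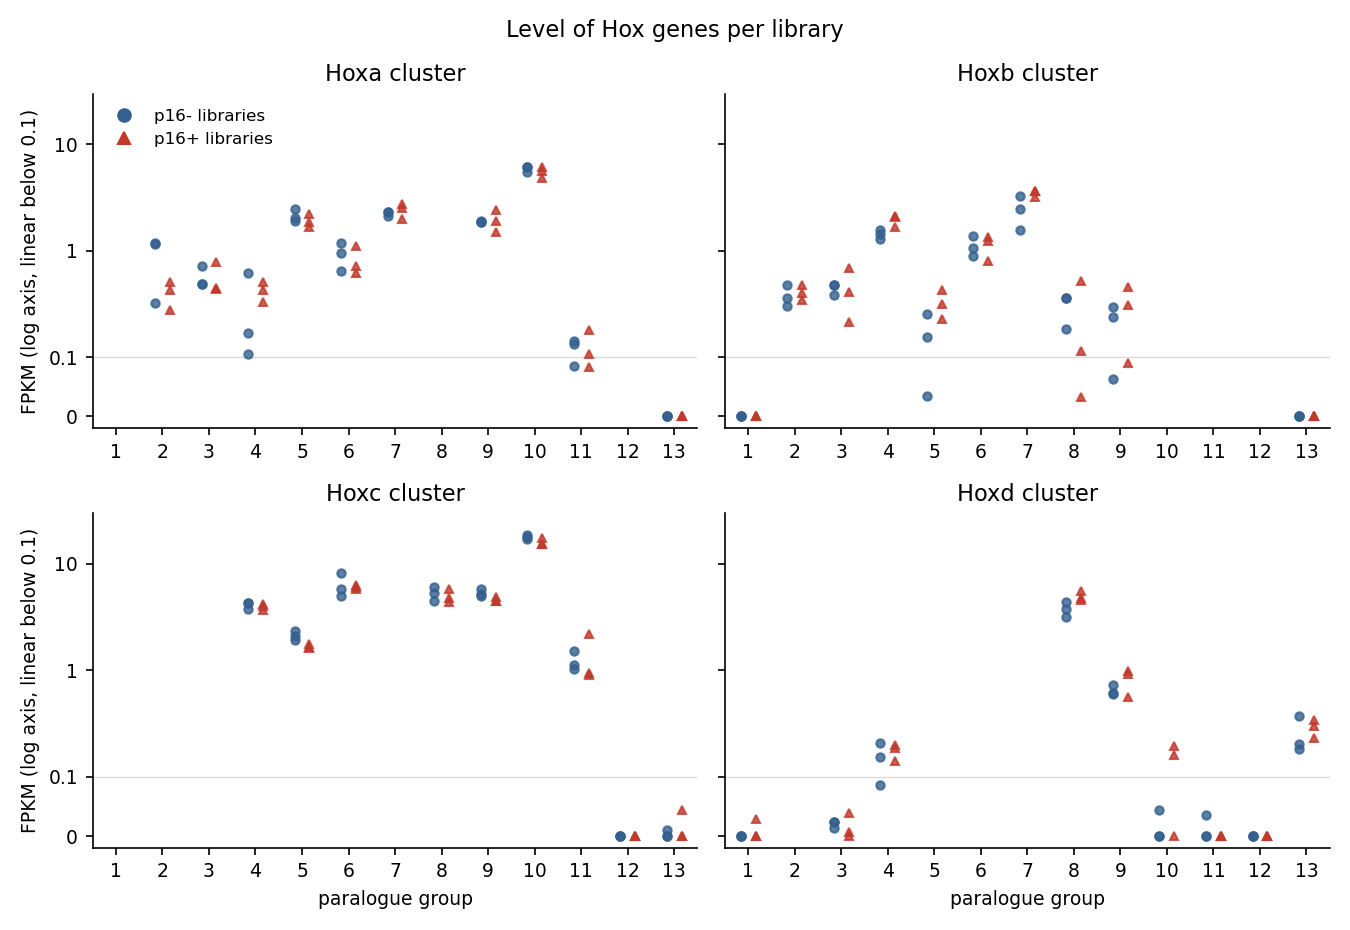
FPKM of 38 of the 39 Hox genes (vertical, log axis that is linear below 0.1) by paralogue group (horizontal) in each of the 4 clusters, with circles for the 3 p16- and triangles for the 3 p16+ libraries. Hoxc10 stands above every other gene, Hoxd8 is the only Hoxd gene above 1 FPKM, and circles and triangles of most genes lie together.

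The Hoxc cluster (chromosome 15, 102921103 to 103036852, GRCm38) held the most abundant members. Hoxc10 (ENSMUSG00000022484.7, chromosome 15, 102966796 to 102971893, plus strand), a posterior gene of the lumbar region and the hindlimb, had 15.5, 17.5 and 15.5 FPKM in the p16+ libraries and 17.9, 17.1 and 18.8 in the p16- libraries. The ranges overlapped, and no other member exceeded 8.25 FPKM in any library. Of its exonic length 8.7% is shared with Hoxc5, which has an exon there in this annotation. Hoxc6, a gene of the thoracic region, had 5.77, 6.34 and 6.03 FPKM in p16+ and 8.25, 5.81 and 4.96 in p16-. Hoxc8 had 4.42, 5.83 and 4.74 against 6.12, 5.32 and 4.49 FPKM. In both genes the groups overlapped, and the highest library was p16- replicate 1. Hoxc9 had 4.53, 4.87 and 4.52 against 5.85, 5.16 and 4.95 FPKM, with all 3 p16- libraries above all p16+ ones. Hoxc4 averaged 4.06 FPKM over the 6 libraries and Hoxc5 1.90. Hoxc11, next to the end of the cluster that was at or near 0, averaged 1.28 FPKM, Hoxc13 had 4, 0 and 0 counts in p16+ and 0, 0 and 1 in p16-, and Hoxc12 had none.

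In the Hoxa cluster (chromosome 6, 52155590 to 52260880) the highest level was again in group 10. Hoxa10, which acts in the upper segment of the limb, had 5.59, 4.81 and 6.10 FPKM in p16+ and 6.10, 5.47 and 6.12 in p16-, which overlapped. The next genes towards the posterior end were far lower: Hoxa11, the paralogue that patterns the middle segment of the limb, had 9, 7 and 14 counts in p16+ and 8, 12 and 12 in p16-, a mean of 0.12 FPKM, and Hoxa13, of the hand and foot, had none. Of the exonic length of Hoxa11 35.0% is overlapped by the antisense gene Hoxa11os. In unstranded counts, fragments in this overlap are left out of both genes under the defaults of the counting program. The FPKM of Hoxa11 over its full length may therefore be too low. On the anterior side Hoxa9, Hoxa7 and Hoxa5 averaged 1.91, 2.33 and 2.02 FPKM, and Hoxa2, Hoxa3, Hoxa4 and Hoxa6 lay between 0.36 FPKM for Hoxa4 and 0.87 for Hoxa6.

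The Hoxb cluster (chromosome 11, 96194316 to 96368256) was expressed mainly in its central part. Hoxb7 averaged 2.98 FPKM, Hoxb4 1.70 and Hoxb6 1.13, and the other 5 tested members (Hoxb2, Hoxb3, Hoxb5, Hoxb8 and Hoxb9) lay between 0.24 and 0.44. The level of Hoxb3 depends on its length: 52.9% of it is overlapped by the antisense gene Hoxb3os, and over the length not shared the mean was 0.94 in place of 0.44 FPKM. The cluster's end genes Hoxb1, of the hindbrain, and Hoxb13, of the tail, had no count in any library.

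In the Hoxd cluster (chromosome 2, 74668310 to 74765142), known for its role in digits, a single gene stood out. Hoxd8 had 5.51, 4.57 and 4.82 FPKM in p16+ and 4.37, 3.78 and 3.18 in p16-, with every p16+ library above every p16- library. Hoxd9 averaged 0.74 FPKM. Further towards the posterior end Hoxd10 had 13, 0 and 10 counts in p16+ and 0, 0 and 3 in p16-, Hoxd11 had 6 counts in 1 p16- library and none elsewhere, and Hoxd12 had none. Hoxd13, the last gene, was present again in all libraries, at 27, 21 and 29 counts in p16+ and 38, 18 and 19 in p16-, a mean of 0.27 FPKM. On the anterior side Hoxd4 averaged 0.16 FPKM, Hoxd3 had at most 6 counts in a library, and Hoxd1 had 2 counts in 1 p16+ library and none elsewhere. Of the exonic length of Hoxd3 53.1%, and of Hoxd4 39.1%, is shared with the read-through gene Gm28230, and fragments in such overlaps are left out of both under the defaults of the counting program.

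These Hoxd genes span a wide range of levels within a short stretch of chromosome 2, and the promoters of the abundant Hoxd8, the undetected Hoxd12 and the low Hoxd13 are printed for that contrast. They come from the RefSeq table of GRCm38.p6, which matched 23 of the 42 members, and each runs from 250 bases before the annotated start to 50 bases from it. Their places are chr2:74704365-74704664, chr2:74674763-74675062 and chr2:74667975-74668274, all on the plus strand, and capitals mark matches to the motifs named below.
Hoxd8: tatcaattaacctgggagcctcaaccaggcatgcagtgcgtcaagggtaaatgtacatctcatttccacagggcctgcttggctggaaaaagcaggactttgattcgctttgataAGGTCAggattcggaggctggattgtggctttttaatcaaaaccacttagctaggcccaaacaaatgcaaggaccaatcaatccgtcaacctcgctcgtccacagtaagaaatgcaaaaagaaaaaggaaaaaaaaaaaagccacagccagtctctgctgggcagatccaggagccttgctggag
Hoxd12: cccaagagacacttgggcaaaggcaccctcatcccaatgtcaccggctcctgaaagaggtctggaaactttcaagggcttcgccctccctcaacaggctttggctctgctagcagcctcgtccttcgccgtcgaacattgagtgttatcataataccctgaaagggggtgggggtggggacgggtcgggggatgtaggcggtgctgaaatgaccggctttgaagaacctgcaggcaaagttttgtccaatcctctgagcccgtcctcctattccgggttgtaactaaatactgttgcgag
Hoxd13: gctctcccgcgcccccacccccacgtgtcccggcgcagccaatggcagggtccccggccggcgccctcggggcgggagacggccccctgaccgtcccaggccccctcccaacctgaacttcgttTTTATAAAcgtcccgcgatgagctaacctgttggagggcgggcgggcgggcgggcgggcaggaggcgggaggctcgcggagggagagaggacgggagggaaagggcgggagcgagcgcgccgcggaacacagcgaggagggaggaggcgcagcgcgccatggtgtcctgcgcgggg
Both strands were searched for TGATTNAT (the joint site of PBX and Hox proteins), TGACAG (MEIS and PKNOX), AGGTGT (a T-box core), AGGTCA (the core of a nuclear receptor site, such as that of retinoic acid receptors) and TATAAA (the TATA box). These are held by 3.22%, 19.2%, 13.7%, 16.3% and 13.6% of the 32851 promoters of the same length in the table. The Hoxd8 window held AGGTCA at position -135 from the start, and the Hoxd12 window held none of the motifs. AGGTCA or its reverse complement also stood in the windows of Hoxd3, Hoxd4 and Hoxd10, which had few counts. It was absent from those of Hoxd1, Hoxd9 and Hoxd11. In the Hoxd13 window TATAAA stood at -124, and its reverse complement TTTATA at -126 overlaps it. The windows also differ in composition: G and C made up 46.7% of the bases for Hoxd8, 55.0% for Hoxd12 and 74.3% for Hoxd13, with 6, 13 and 37 CpG dinucleotides, where the median promoter has 52.7% and 7. The windows of the other Hoxd genes, which lay below 1 FPKM, ran from 39.7% and 4 for Hoxd4 to 69.7% and 29 for Hoxd1. A relation of motifs or composition to level was not tested. A match is a description of the letters and not a site of binding.

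Setting p16+ beside p16- libraries asks whether this positional profile differs between reporter-positive and reporter-negative stroma. No difference in a Hox gene passed the test: of the 29 tested Hox genes 0 were called higher and 0 lower by edgeR's quasi-likelihood test at a Benjamini-Hochberg adjusted p under 0.05. Over all 15903 tested genes 16.7% were called, 8.69% higher and 8.04% lower in p16+. At an unadjusted p under 0.05 there was 1 Hox gene, Hoxd8, and DESeq2 and limma-voom called 0 Hox genes, with 2 each at that unadjusted level. The median log2 fold change of the 29 was 0.04, against -0.01 for all tested genes. Of all 32 tested members, 1 was called: Tbx5, which fell. The groups did not overlap for 4 of the 29 Hox genes (Hoxb4, Hoxc5, Hoxc9 and Hoxd8) and for Tbx5 and Pitx1, where 33.1% of all tested genes had no overlap.

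A p that misses the threshold does not show equal levels, and the width of the 95% intervals says what size of difference these libraries could hold. For 17 of the 29 Hox genes the interval lay within 2-fold in both directions, and for 8 of these within 1.5-fold. For the other 12, mostly genes of low counts, it reached past 2-fold. Hoxc10 had 30.9 ± 2.21 CPM in p16+ and 34.2 ± 1.6 in p16-, a log2 fold change of -0.15 with an interval of -0.35 to 0.05 (edgeR adjusted p = 0.337). Hoxa10 had 18.0 ± 2.12 and 19.3 ± 1.22 CPM (log2 fold change -0.10, interval -0.36 to 0.16, edgeR adjusted p = 0.649). The 2 leading genes of group 10 were therefore held within narrow limits. Hoxa11, with counts of 7 to 14, had an interval of -1.66 to 1.75 and says little.

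**Figure D2:**
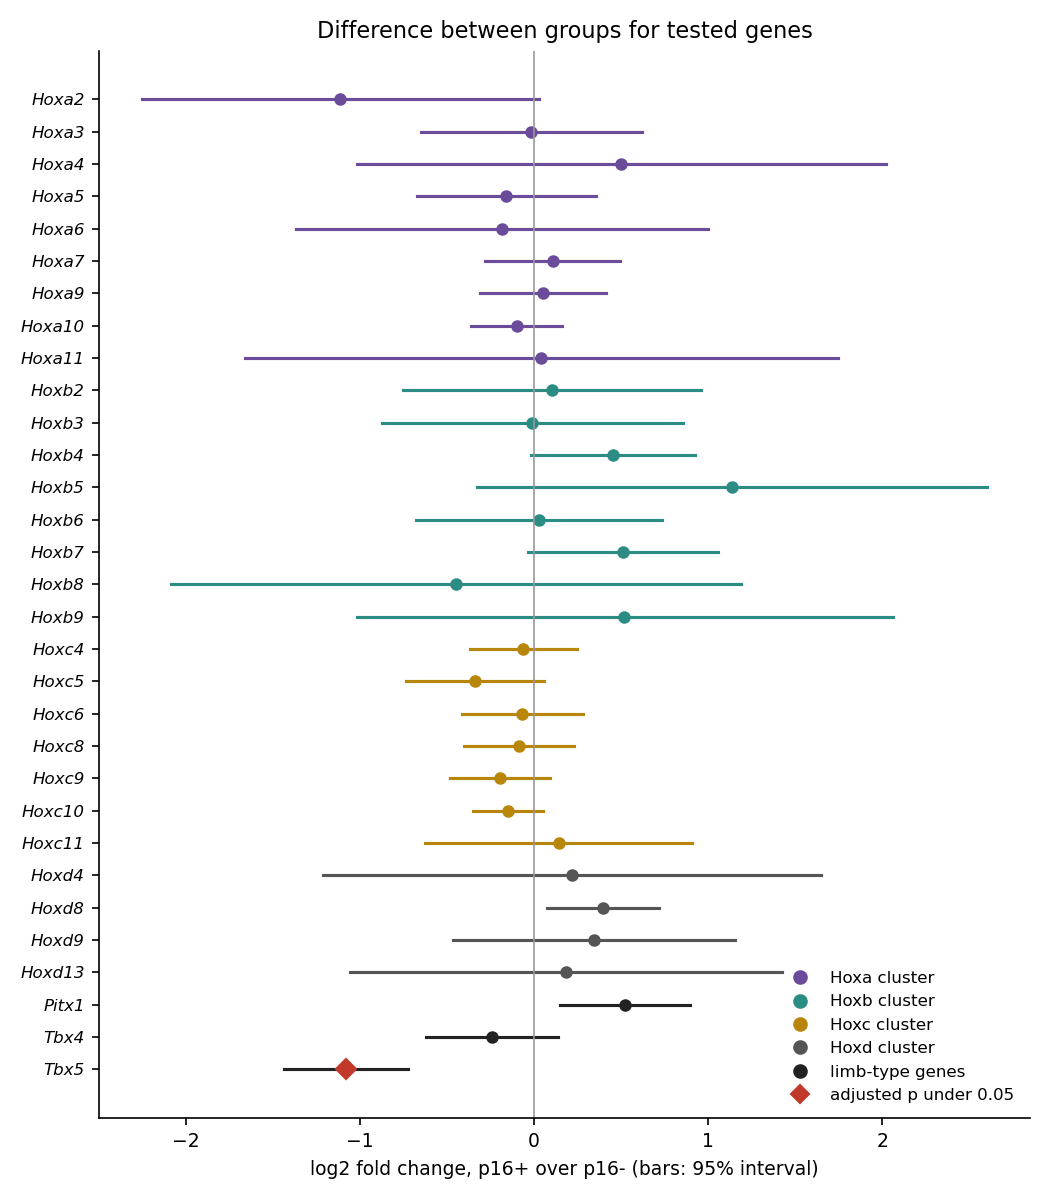
Log2 fold change of p16+ over p16- (horizontal) with its 95% interval for 31 of the 32 tested members, coloured by cluster, with a red diamond for an adjusted p under 0.05. Tbx5 is the one diamond, at -1.08, and intervals are narrow for the abundant Hoxc genes and wide for Hoxa11, Hoxb8 and Hoxa4.

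By cluster, none of the tested genes of Hoxa (10), Hoxb (8), Hoxc (7) and Hoxd (4) was called. The fold changes had medians of 0.01, 0.28, -0.09 and 0.28 on the log2 scale and stood above 0 for 5, 6, 1 and 4 genes. In Hoxa the lowest was -1.12 for Hoxa2, and Hoxa4 had 0.50. They ran in Hoxb from -0.45 for Hoxb8 to 1.14 for Hoxb5, in Hoxc from -0.34 for Hoxc5 to 0.14 for Hoxc11, and in Hoxd from 0.18 for Hoxd13 to 0.40 for Hoxd8. As a share of the summed FPKM of all Hox genes, the Hoxc cluster made up 53.9% to 58.8% in p16+ and 60.4% to 61.6% in p16-. The Hoxd cluster made up 8.5% to 10.5% against 6.2% to 7.7%, Hoxb 10.4% to 13.8% against 8.8% to 10%, and Hoxa 18.9% to 23.7% against 21.1% to 24.2%. These shares of Hoxb, Hoxc and Hoxd did not overlap between the groups, while those of Hoxa and the total, 67.8 to 69.7 against 66.2 to 74.7 FPKM, did. The shares add up to a whole, so they do not move independently, and they are given as a description with no test.

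Over merged paralogue groups, the medians on the log2 scale were -0.01 for the 5 tested genes of groups 1 to 3, 0.03 for the 15 of groups 4 to 8, -0.03 for the 6 of groups 9 and 10, and 0.14 for the 3 of groups 11 to 13. Within single groups of at least 2 tested genes the medians spread more widely, from -0.51 in group 2 to 0.33 in group 4. Paralogues of the same number did not share a direction in each group. In group 8 Hoxd8 had a log2 fold change of 0.40, Hoxc8 of -0.09 and Hoxb8 of -0.45, and in group 5 Hoxb5 had 1.14, Hoxa5 -0.16 and Hoxc5 -0.34. Only Hoxd8 of these 6 had an interval that left out 0.

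Hoxd8 was the Hox gene nearest to the threshold. It had 15.1, 12.6 and 13.2 CPM in p16+ and 12, 10.4 and 8.73 in p16-, means of 13.6 ± 1.34 and 10.4 ± 1.63. The log2 fold change was 0.40 (interval 0.07 to 0.72, edgeR adjusted p = 0.0914), and without p16- replicate 1 it was called higher (edgeR adjusted p = 0.0399). Over all alternatives its adjusted p ran from 0.0399 to 0.324. Hoxb4, a gene of the neck region, had 5.05 ± 0.641 against 3.69 ± 0.370 CPM (log2 fold change 0.45, edgeR adjusted p = 0.197). Hoxc5 had 5.20 ± 0.266 against 6.57 ± 0.642 CPM (-0.34, edgeR adjusted p = 0.257) and Hoxc9, a gene of the thoracic region, a log2 fold change of -0.20 (edgeR adjusted p = 0.383). Hoxa2, a gene of the hindbrain and neural crest, had counts of 33, 28 and 17 in p16+ and 85, 23 and 76 in p16-. Its p16- replicate 2 lay among the p16+ libraries, and without that library Hoxa2 was called lower (log2 fold change -1.51, edgeR adjusted p = 0.0477; -1.12 and 0.19 with all libraries). Hoxb5 had the highest fold change of the 32 tested members and counts of 32, 44 and 22 against 4, 28 and 16, which overlapped (interval -0.33 to 2.61, edgeR adjusted p = 0.313).

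Replicates differed from each other by more than counting error in many of these genes. Of the 32 tested members, 15 in p16+ and 16 in p16- had a coefficient of variation at least 2 times that of counting alone. Hoxb8 had 11, 50 and 3 counts in the p16+ libraries, a variation of 117% where counting gives 21.7%, and 39, 38 and 18 in p16-. Hoxb3 had 64, 108 and 31 counts in p16+ (54.7% where counting gives 12.2%) and Hoxb9 29, 43 and 8 (64.3% against 19.4%). These genes share an order: of the 8 tested Hoxb genes, 7 were highest in p16+ replicate 2 and 6 lowest in p16+ replicate 3 among the p16+ libraries. Those 2 libraries are also the ones that lie farthest apart on the second principal component of all tested genes, at 38.22 and -46.65. The share of all tested genes with this order was not counted, so it is not shown to be particular to Hoxb. Hoxb7, included in both counts, varied in p16+ by 6.93% where counting gives 7.19%. Hoxc11, by contrast, had 67, 70 and 151 counts in p16+ and was highest in replicate 3. In p16- Hoxa4 had 7, 39 and 10 counts (93.4% where counting gives 23.1%), and Hoxb7 varied by 34.9% where counting gives 8.19%. Hoxa9 varied by 23.9% in p16+ and by 1.68% in p16-, below the 4.93% that counting gives there. Tbx5, the one member called, varied by 18.2% in p16+ and 17.0% in p16-, where counting gives 5.99% and 3.93%.

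**Figure D3:**
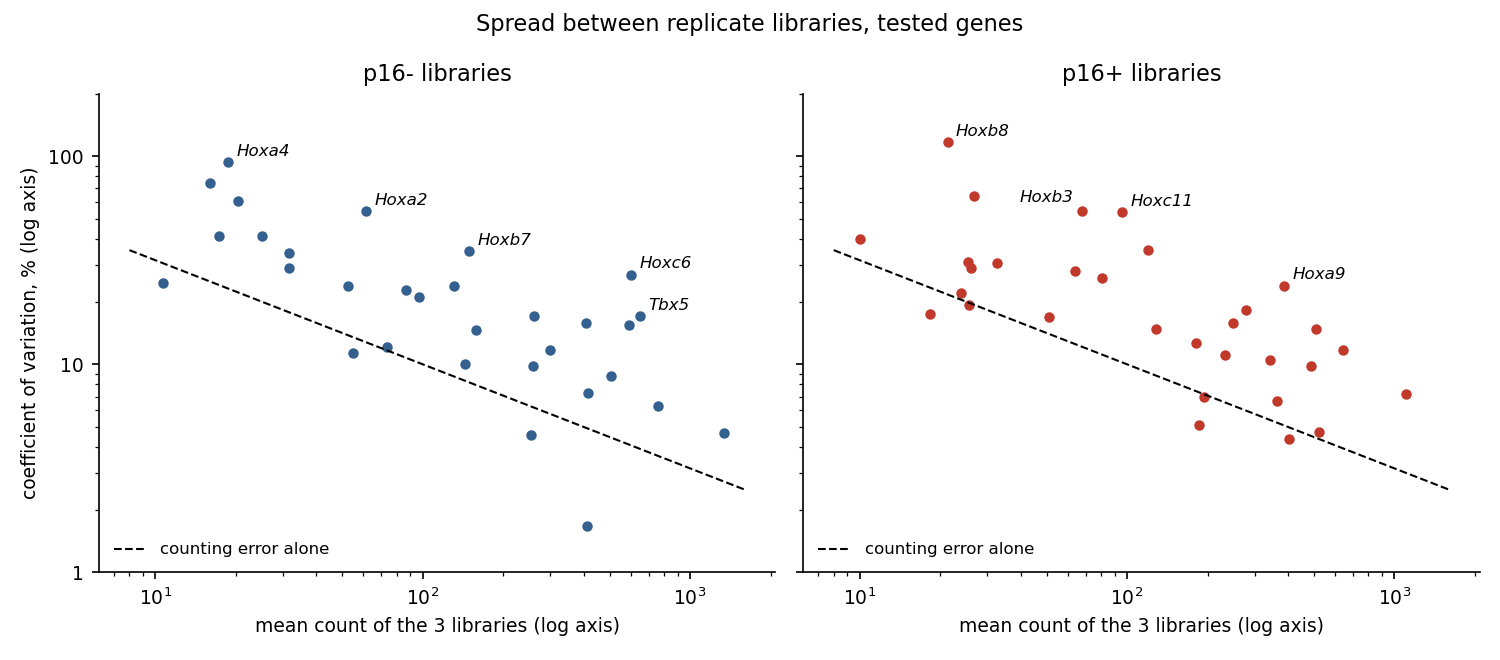
Coefficient of variation between the 3 libraries of a group in percent (vertical, log axis) against the mean count (horizontal, log axis) for 31 of the 32 tested members, p16- on the left and p16+ on the right, with the dashed line for counting error alone and names where the spread was at least 4 times that line. Hoxb8, Hoxc11, Hoxa9 and Hoxb3 are named in p16+, and Hoxc6, Tbx5, Hoxa2, Hoxb7 and Hoxa4 in p16-.

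Among the genes of limb type, the forelimb gene Tbx5 was present in this hindlimb muscle stroma, and it fell in p16+ cells. Tbx5 (ENSMUSG00000018263.11, chromosome 5, 119832668 to 119885219, plus strand, with no exon shared with another gene) had 341, 246 and 248 counts in the p16+ libraries and 643, 775 and 523 in the p16- libraries. These are 9.38, 6.70 and 7.24 CPM against 15.8, 19.5 and 14.1, so that every p16+ library lay below every p16- library. The means were 7.77 ± 1.42 and 16.5 ± 2.80 CPM (SD, n = 3), a log2 fold change of -1.08 (SE 0.17, interval -1.44 to -0.73), or 2.12-fold lower (edgeR adjusted p = 0.000246). By exact permutation of the libraries (two-sided, log2 CPM) p was 0.1, and 2 groups of 3 allow none smaller. The call was kept in all alternatives run, with log2 fold changes from -1.24 to -0.94. Beside it, the summed fibroblast, satellite cell, leukocyte, and pericyte and smooth muscle markers were higher in p16+, at the values given above. The summed endothelial and Schwann cell markers were lower. The fibroblast and endothelial sums went against most genes of their lists. A log2 fold change above 0 was found for 3 of the 9 fibroblast genes (median -0.23) and 6 of the 8 endothelial genes (median 1.00). Within the fibroblast list, Dpp4, Pi16, Cd34 and Ly6a were called lower, with log2 fold changes of -1.62, -0.91, -0.70 and -0.59. The part of these markers in the fall of Tbx5 was not tested.

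Neither hindlimb gene passed the test. Tbx4 (chromosome 11, 85886422 to 85916097, plus strand) had 7.21, 6.40 and 5.78 CPM in p16+ and 6.93, 8.65 and 7.34 in p16-, with overlap. Its means were 6.46 ± 0.715 and 7.64 ± 0.898 CPM (log2 fold change -0.24, interval -0.62 to 0.14, edgeR adjusted p = 0.422). Pitx1 (chromosome 13, 55825051 to 55836192, minus strand) had 9.38, 10.7 and 8.70 CPM in p16+ and 6.12, 7.97 and 5.91 in p16-, with every p16+ library above every p16- library. The means were 9.59 ± 1.00 and 6.67 ± 1.13 CPM, a log2 fold change of 0.52 with an interval of 0.15 to 0.90, and the edgeR adjusted p of 0.0531 just missed the threshold. Pitx1 was called higher by DESeq2 (adjusted p = 0.0372), and in edgeR with a stricter filter (0.0454) and without p16- replicate 2 (0.0254). Over all alternatives its adjusted p ran from 0.0254 to 0.196. Of its exonic length 10.3% is overlapped, by Gm47071 on the opposite strand and Gm28760 on the same strand, and Gm47071 itself had 1.73 against 1.67 CPM.

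**Figure D4:**
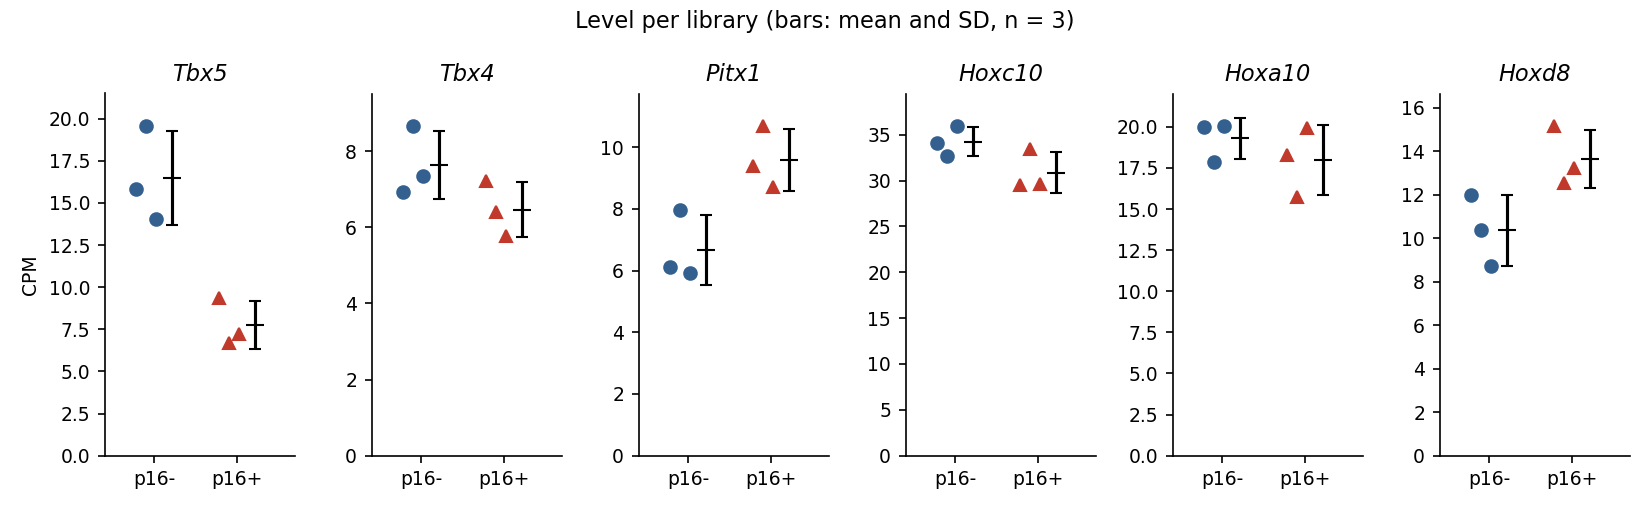
CPM (vertical, from 0) in each p16- (circles) and p16+ (triangles) library for Tbx5, Tbx4, Pitx1, Hoxc10, Hoxa10 and Hoxd8, with black bars for the mean and SD of 3 libraries. The p16+ libraries lie below all p16- libraries for Tbx5 and above them for Pitx1 and Hoxd8, and the groups overlap for Tbx4, Hoxc10 and Hoxa10.

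Per length, the order of the 3 genes differed between the groups. In p16- the mean FPKM was 3.52 for Tbx5, 2.51 for Pitx1 and 2.25 for Tbx4, and in p16+ it was 3.61 for Pitx1, 1.90 for Tbx4 and 1.66 for Tbx5. The ratio of Tbx5 to Tbx4, chosen with 2 others after the values were seen, was 0.947, 0.762 and 0.911 in p16+ and 1.66, 1.64 and 1.39 in p16-. Tbx4 was thus the higher of the pair in all p16+ libraries and the lower in all p16- libraries. Pitx1 over Tbx4 was 1.67, 2.14 and 1.93 against 1.13, 1.18 and 1.03, and Tbx5 over Pitx1 0.568, 0.357 and 0.473 against 1.47, 1.39 and 1.35. None of the 3 ratios overlapped between the groups. Each had an exact two-sided permutation p of 0.1, the smallest possible, and 0.1 after adjustment over the 3. For Tbx5 over Pitx1 this was fixed by the values above, since neither gene overlapped and their directions were opposite. The ratios share genes and are not independent of each other or of the single-gene results. Ratios within a library do not depend on its scaling, and they show unequal change, not which gene changed.

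Hox proteins bind DNA together with TALE homeodomain cofactors of the Meis, Pbx and Pknox families. Of 9 such genes, all tested, 0 rose and 1 fell, with a median log2 fold change of -0.07. This is a share of 11.1%, beside 16.7% of all tested genes. The member that fell was Meis1, a marker of the upper limb segment, at 15.4, 18.1 and 15.5 CPM in p16+ and 21.2, 20.2 and 22.3 in p16-, with no overlap. Its means were 16.3 ± 1.51 and 21.2 ± 1.05 CPM (log2 fold change -0.38, edgeR adjusted p = 0.0358), and other genes share 18.3% of its exonic length. The call was lost without p16+ replicate 1 (adjusted p = 0.115) or 3 (0.117) and without p16- replicate 1 (0.0631) or 3 (0.142).

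Of 24 other patterning factors of the limb, 17 were tested, and 3 rose, 1 fell and 13 did not pass, with a median of 0.11. The share called was 23.5%, beside 16.7% of all tested genes. Twist2, a basic helix-loop-helix factor of limb and skin mesenchyme, fell from 10.3 ± 0.385 to 5.82 ± 0.431 CPM (log2 fold change -0.82, edgeR adjusted p = 0.00186), and other genes share 46.5% of its exonic length. Prrx2, a homeobox gene of limb mesenchyme, rose from 39.7 ± 2.50 to 51.9 ± 5.00 CPM (0.39, edgeR adjusted p = 0.00793). Tbx2, a T-box repressor that lies 44473 bases from Tbx4 on chromosome 11, rose from 12.8 ± 1.22 to 18.9 ± 2.66 CPM (0.56, edgeR adjusted p = 0.00871). The homeobox gene Irx3 rose from 3.28 ± 1.21 to 6.08 ± 0.508 CPM (0.89, edgeR adjusted p = 0.0312). The calls of these 3 genes depended on single libraries. Without p16+ replicate 1 none of them was called, at log2 fold changes of 0.30 for Prrx2, 0.44 for Tbx2 and 0.95 for Irx3 (adjusted p = 0.0538, 0.0601 and 0.0516). Irx3 also lost its call when p16+ replicate 2 (0.0923), p16+ replicate 3 (0.105) or p16- replicate 3 (0.116) was left out. Emx2, a homeobox gene of the limb girdle, had 13.1 ± 0.856 against 17.7 ± 3.59 CPM (log2 fold change -0.44, edgeR adjusted p = 0.0558). It was called lower under 6 alternatives: library totals alone, no filter, the stricter filter, DESeq2, a fit with a replicate block, and without p16- replicate 1 (adjusted p = 0.0066 to 0.0485).

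Polycomb proteins keep silent Hox genes repressed, through a complex that methylates histone H3 (with Ezh1 or Ezh2, Eed and Suz12) and another that reads this mark through its Cbx subunits and also holds Bmi1, Phc and Ring proteins. Of 17 Polycomb genes, all tested, 2 rose and 2 fell, with a median log2 fold change of -0.07. The share called was 23.5%, beside 16.7% of all tested genes. Cbx7, which encodes a reader that represses the Cdkn2a locus as well, fell from 34.1 ± 2.64 to 21.3 ± 3.06 CPM (-0.67, edgeR adjusted p = 0.000645). The methyltransferase gene Ezh1 fell from 65.0 ± 2.74 to 49.3 ± 1.63 CPM (-0.40, edgeR adjusted p = 0.00174). In the same complex as Cbx7, Phc2 rose from 44.7 ± 1.07 to 56.7 ± 3.14 CPM (0.34, edgeR adjusted p = 0.00681) and Bmi1, also a repressor of Cdkn2a, from 35.0 ± 1.70 to 45.3 ± 3.87 CPM (0.37, edgeR adjusted p = 0.0104). Phc2 lost its call without p16+ replicate 2 (adjusted p = 0.0512) and Bmi1 without p16+ replicate 3 (0.0686). With library totals alone 2 rose and 4 fell, the added ones being Eed (adjusted p = 0.0344) and Suz12 (0.0391). Eed was also called lower without p16- replicate 2 (0.0442). Cbx6, another reader gene, was called higher by DESeq2 (adjusted p = 0.0243), with a replicate block (0.0288) and without p16- replicate 2 (0.0346), but not in edgeR with all libraries and no block (0.0642).

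Trithorax and MLL proteins, together with histone demethylases, oppose Polycomb at Hox genes. Of 11 such genes, all tested, 0 rose and 1 fell, with a median of -0.08. That is 9.09% called, beside 16.7% of all tested genes. Kdm6b, which encodes the demethylase that removes the Polycomb mark, fell from 222 ± 29.4 to 155 ± 5.89 CPM (-0.52, edgeR adjusted p = 0.000837). With library totals alone 3 fell, adding Men1 (adjusted p = 0.0363) and Wdr5 (0.0446).

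Retinoic acid induces anterior Hox genes in the embryo through its nuclear receptors. Of 11 genes of its receptors and enzymes, all tested, 0 rose and 2 fell, with a median of -0.09. Called genes made up 18.2%, beside 16.7% of all tested genes. Both are aldehyde dehydrogenases that make retinoic acid. Aldh1a3 had 32.5, 34.1 and 33.3 CPM in p16+ and 100, 97.9 and 91.2 in p16- (log2 fold change -1.54, edgeR adjusted p = 2.98e-08), and Aldh1a1 fell from 81.6 ± 11.6 to 43.5 ± 6.72 CPM (-0.91, edgeR adjusted p = 4.37e-05). In Aldh1a3 the groups lay far apart with little spread within them. The receptor gene Rxrg was next, at 2.58 ± 0.236 against 4.51 ± 1.26 CPM (-0.81, edgeR adjusted p = 0.0501). It was called lower with library totals alone, without a filter, with the stricter filter, by DESeq2 and without p16- replicate 2 (adjusted p = 0.0293 to 0.0482). Of 5 axial regulators, the caudal genes Cdx1, Cdx2 and Cdx4 were at or near 0 and not tested. Of the 2 tested genes 1 was called (50.0%, beside 16.7% of all tested genes), and Gbx2 did not pass. Gdf11, a TGF-beta family ligand that sets the position of the hindlimb along the trunk, rose from 10.5 ± 2.08 to 17.0 ± 1.90 CPM (0.69, edgeR adjusted p = 0.00532).

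**Figure D5:**
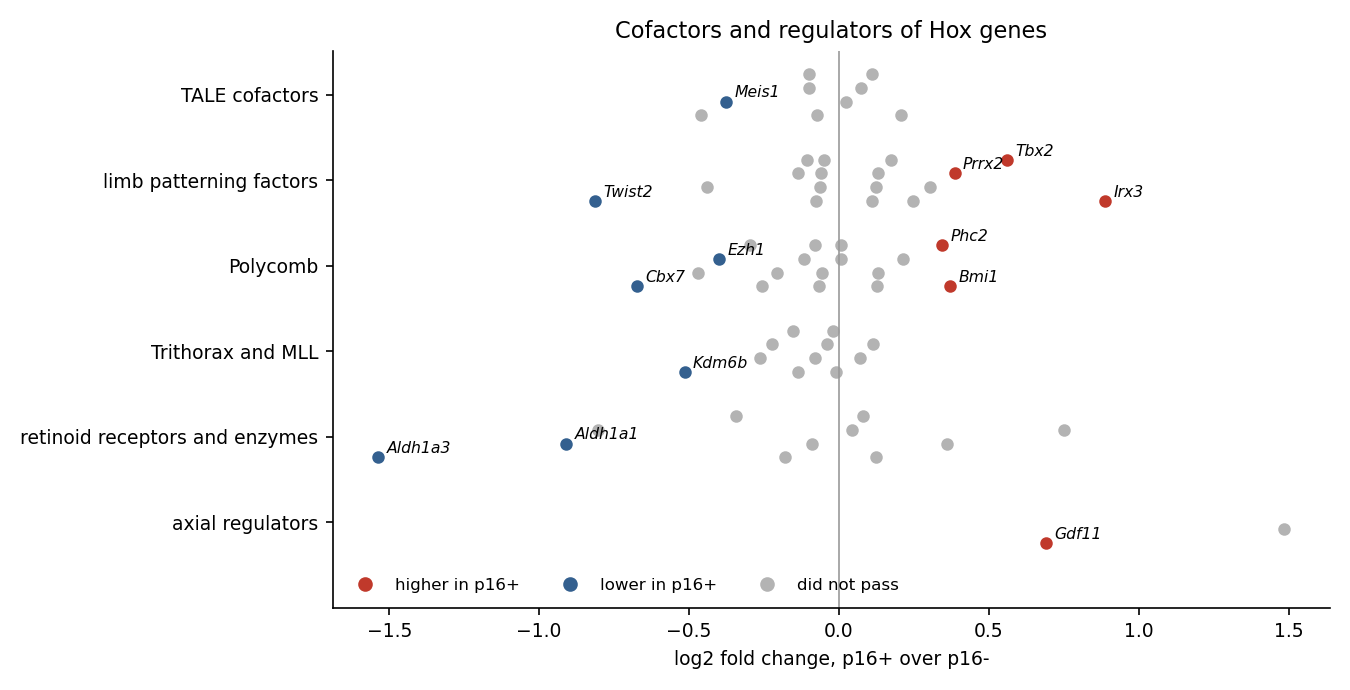
Log2 fold change of p16+ over p16- (horizontal) of each tested gene in the 6 lists of cofactors and regulators (rows), red where higher, blue where lower and grey where it did not pass the threshold. Most genes are grey and near 0, and Aldh1a3 lies farthest to the left at -1.54.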

How the data were processed

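Whole-number counts of fragments per gene were deposited; per the file headers, the authors ran featureCounts 1.6.0 over GENCODE vM21 exons. The submitters' processing notes name bcl2fastq, the aligner STAR 2.7.3a and the genome GRCm38.p6. Libraries came from a kit that does not mark strand, and samples with an RNA integrity number below 7 were left out, per the labels' protocols. All 55536 identifiers matched vM21, which gave symbols, coordinates and exon overlaps.

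Genes were filtered with filterByExpr (15903 kept, with 99.918% to 99.932% of counts) and tested with edgeR 4.0.16 in R 4.3.3 (TMM, robust quasi-likelihood test, group only), with Benjamini-Hochberg adjustment over all genes tested and a threshold of 0.05. The common biological coefficient of variation was 0.158. CPM and FPKM were computed from counts, TMM-scaled totals and exonic lengths; log2 CPM for permutation tests had a prior count of 2. Alternatives were RLE factors, library totals alone, no filter, a stricter filter (CPM of at least 1 in 3 libraries), DESeq2 1.42.0, limma-voom (limma 3.58.1), a replicate block, each library left out, TPM, length free of overlap and a prior count of 0.5.

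The members and the lists (TALE cofactors, limb patterning, Polycomb, Trithorax and MLL, retinoid and axial genes, and markers of fibroblasts and 7 other cell types) were chosen with earlier results of these data known. Every member is accounted for except 1, which is counted but whose values are not reported here, and each pathway list is named by its up to 4 called genes with the smallest p. Tbx3, Eed, Suz12, Men1, Wdr5, Emx2, Rxrg, Cbx6 and the ratios were chosen after their values were seen.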

Additional observations from a re-analysis of the deposited data

How the results depend on the processing

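The number of members called was 1 in the report; it was 2 with the stricter filter, 2 with DESeq2, 2 with the replicate block, and 1 to 3 with 1 library left out (2 without p16- replicate 1, adding Hoxd8, and 3 without p16- replicate 2, adding Pitx1 and Hoxa2). The number called higher, 0 in the report, was 1 in those settings (Pitx1 with the stricter filter, DESeq2 and the block) and 0 to 1 with 1 library left out, and the number called lower, 1 in the report, was 1 to 2. Same-numbered libraries of the groups correlated at 0.028, 0.082 and -0.005 after removal of group means. The labels do not say whether these libraries are paired, and correlations from 3 libraries per group cannot decide it. With the replicate block 3114 genes were called and the edgeR adjusted p of Pitx1 was 0.0332. Over all genes 2660 were called, 2941 with library totals alone, 2938 without a filter, 2998 with DESeq2, 2672 with limma-voom, 2651 with RLE factors and 2744 with the stricter filter, and 1887 (without p16- replicate 3) to 2567 with 1 library left out. With library totals alone 36.0% of the called genes were higher in place of 52.0%, the median of all genes was -0.08, and Hoxa9, Hoxa11 and Hoxb6 went from 0.05, 0.04 and 0.03 to -0.02, -0.03 and -0.05. Of 407 single-gene results of members under the alternatives, 401 kept their side of the threshold, 6 passed it newly, and 0 lost a call or reversed one. The 401 include changes of sign in genes called neither in the main fit nor in the alternative. Of 64 group means of FPKM, 16 moved by more than 1 SD with the length free of overlap, and Hoxd4 went from 0.16 to 0.34; all 64 moved as TPM, which is on another scale. The cause of these changes was not tested. The intervals that reach past 2-fold belong mostly to genes of few counts, several of which also varied between replicates by more than counting error (Hoxb8, Hoxb9, Hoxa2 and Hoxb5).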

Other observations

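The Hox clusters also hold 46 other annotated genes, most of them non-coding RNAs, and 22 of these had no count in any library. The filter kept 11, of which 0 were called by edgeR (0 also at an unadjusted p under 0.05, under each alternative run). Hotairm1, a non-coding RNA of the Hoxa cluster, had 62, 85 and 70 counts in p16+ and 76, 60 and 70 in p16-, with overlap (log2 fold change 0.20, edgeR adjusted p = 0.746), and 43.1% of its exonic length is shared with other genes. Hotair, a non-coding RNA of the Hoxc cluster that is known from fibroblasts of posterior and distal sites, had 25, 14 and 17 counts against 10, 20 and 1 (1.00, edgeR adjusted p = 0.504). A fragment of Hotair was thus found in every library beside Hoxc11 and Hoxc10, but p16- replicate 3 had only 1. Gm11536, antisense in the Hoxb cluster, was the one of the 11 whose groups did not overlap, where 33.1% of all tested genes had no overlap. It had 15, 16 and 20 against 2, 10 and 8 counts (1.46, edgeR adjusted p = 0.276). The other 8 (Hoxaas2, Hoxaas3, Hoxb3os, Hoxd3os1, 5730596B20Rik, Gm15050, Gm11539 and Gm27477) overlapped between the groups, with log2 fold changes from -0.60 for Hoxaas2 to 1.00 for Gm27477.

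Tbx3, the T-box gene next to Tbx5 with a gap of 147943 bases on chromosome 5, had 16, 16.6 and 17.2 CPM in p16+ and 11.1, 15.6 and 13.7 in p16-. All p16+ libraries were above all p16- libraries, the opposite direction to Tbx5, but the difference did not pass (log2 fold change 0.30, edgeR adjusted p = 0.161).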
